A study of Mus musculus with 8 samples.

Results

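The genes described here encode the nuclear-encoded subunits of the mitochondrial respiratory chain and of ATP synthase. They were chosen by symbol, through the RefSeq accession of each probe. The symbols begin with Ndufa, Ndufb, Ndufc, Ndufs or Ndufv for complex I (without the Ndufaf assembly factors), run from Sdha to Sdhd for complex II, begin with Uqcr for complex III, name the Cox4 to Cox8 subunits for complex IV, and begin with Atp5 for complex V, the ATP synthase. A probe matched 85 such genes. Of these, 81 were well above background on both arrays of at least 1 group and were tested among 13496 genes in all: 37 of complex I, 4 of complex II, 8 of complex III, 15 of complex IV and 17 of complex V. All 81 were above background on all 8 arrays, so none was tested only because of the group in which it was high. The other 4 were above background on 0 of 8 arrays: Cox7b2 and Cox8c, which encode testis isoforms, Cox8b, a heart and muscle isoform, and Ndufa4l2, a hypoxia-inducible paralogue of Ndufa4. Symbols are those of the reference table, and some are older names.

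RNA came from CD4 single-positive thymocytes of mice, lysed directly after isolation, in 4 sorted groups of 2 biological replicates each. The series addresses the roles of the Nr4a nuclear receptors and of Foxp3, the lineage-defining transcription factor of regulatory T cells, in the thymic development of these cells. WT Tconv were conventional CD4 T cells of wild-type mice, low in CD25, and WT Treg were wild-type Foxp3-positive cells. Nr4a-TKO preTreg cells were regulatory T cell precursors of the genotype labelled Nr4a-TKO, gated on high CD25, high GITR and high Nr4a3, and Foxp3-KO preTreg cells were precursors gated on high CD25 and on a Foxp3 reporter. No group held wild-type precursors, so a mutant group differed from each wild-type group in genotype and in gate. The strain, the age of the mice, the driver of each deletion and whether animals were pooled were not given in the sources used here, and the p-values therefore measure the spread between samples that may share animals.

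Complexes I to IV pass electrons from NADH and succinate through ubiquinone and cytochrome c to oxygen. Complexes I, III and IV pump protons as they do so, and ATP synthase uses the proton gradient to make ATP. The catalytic centres of complexes III and IV and the proton-pumping core of complex I include proteins encoded in mitochondrial DNA, and most of the remaining subunits, encoded in the nucleus, are the genes described here. Resting T cells draw on this respiration, activated and dividing T cells also raise glycolysis, and regulatory T cells are known to need the respiratory chain for their suppressive function.

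The promoters of 4 members with large differences between the groups are shown, searched for the motifs best known for this gene class. Cox6a1 and Ndufc1 were picked among members lower in WT Treg because their windows match the NRF1 or YY1 motif. Their matches were thus fixed by the choice, while Cox7a2l and Cox8a were added by name. The window of Ndufab1, which fell most in WT Treg, held no match and is not shown. Each window holds 300 bases, 250 before and 50 after the transcription start, 5′ to 3′, on the minus strand of GRCm38.p6, from RefSeq. Cox6a1 lies at chr5:115348909-115349208, Ndufc1 at chr3:51408906-51409205, Cox7a2l at chr17:83514284-83514583 and Cox8a at chr19:7217567-7217866. Capitals mark matches to a searched motif.
Cox6a1: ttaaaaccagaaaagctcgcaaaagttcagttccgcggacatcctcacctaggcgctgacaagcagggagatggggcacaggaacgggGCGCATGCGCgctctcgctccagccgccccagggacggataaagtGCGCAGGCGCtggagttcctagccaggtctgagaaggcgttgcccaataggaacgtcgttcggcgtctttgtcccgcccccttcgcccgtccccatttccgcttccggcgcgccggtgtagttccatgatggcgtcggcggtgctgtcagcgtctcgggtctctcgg
Ndufc1: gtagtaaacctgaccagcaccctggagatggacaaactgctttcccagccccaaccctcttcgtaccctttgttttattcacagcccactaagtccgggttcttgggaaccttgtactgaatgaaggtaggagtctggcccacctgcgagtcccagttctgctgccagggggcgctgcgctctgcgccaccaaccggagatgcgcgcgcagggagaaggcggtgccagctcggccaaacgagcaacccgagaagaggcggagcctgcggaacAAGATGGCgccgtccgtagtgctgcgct
Cox7a2l: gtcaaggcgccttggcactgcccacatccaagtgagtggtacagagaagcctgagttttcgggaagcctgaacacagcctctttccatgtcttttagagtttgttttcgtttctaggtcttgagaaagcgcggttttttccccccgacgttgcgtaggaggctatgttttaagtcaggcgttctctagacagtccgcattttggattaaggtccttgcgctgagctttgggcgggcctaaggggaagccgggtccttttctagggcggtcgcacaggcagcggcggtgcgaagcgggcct
Cox8a: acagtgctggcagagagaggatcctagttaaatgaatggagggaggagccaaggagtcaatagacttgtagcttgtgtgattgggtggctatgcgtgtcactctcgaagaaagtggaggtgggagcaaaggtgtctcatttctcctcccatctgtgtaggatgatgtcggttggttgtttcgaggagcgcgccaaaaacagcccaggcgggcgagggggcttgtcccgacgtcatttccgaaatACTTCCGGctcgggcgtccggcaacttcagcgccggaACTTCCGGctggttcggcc
The 2 capital runs in Cox6a1 match the NRF1 motif, the run in Ndufc1 matches the YY1 motif, and the 2 runs in Cox8a are the reverse complement of the ETS motif bound by GABPA. Cox7a2l held no match to any motif searched.

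Motifs were searched on both strands of 72 windows that belonged to 67 of the 81 members. The NRF1 motif, spelled by the capitals in Cox6a1 with 1 of its bases left free, was in 25% of the members' windows, against 9.0% of the windows of all tested genes and 4.6% of all windows. The YY1 motif AANATGGC was in 23.6%, 7.9% and 6.1%, and the ETS motif CCGGAAGT in 6.9%, 7.4% and 3.9%. The ERR motif TNAAGGTCA, which overlaps the Nr4a motif in the letters AAGGTCA, was in 4.2%, 0.8% and 1.3%. The Nr4a motif AAAGGTCA was in 0.0% of the members' windows, 1.1% of those of tested genes and 1.5% of all. The forkhead motif TGTTTAC was in 1.4%, 2.7% and 3.6%. A match is a description of these letters and shows no binding.

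Between 47.7% and 52.1% of probes were well above background on each array, the 75th percentile of the signal was 7.97 to 9.2 times the background, and no spot was saturated. All levels below are log2 intensities minus the 75th percentile of the array, so that a level of 0 is that percentile. Over all tested genes, the correlation between replicates was 0.976 for Foxp3-KO, 0.99 for both Nr4a-TKO and WT Treg and 0.997 for WT Tconv. The 8 arrays shared 1 slide, on which one row held the WT Tconv and Nr4a-TKO arrays and another those of WT Treg and Foxp3-KO, and between those pairs a row effect cannot be told apart from a group effect. The Foxp3 probe was at -3.40 and -3.79 in WT Tconv, 5.0 and 4.72 in WT Treg, 3.80 and 3.25 in Nr4a-TKO, and 1.97 and 1.74 in Foxp3-KO. The Nr4a1 probe was between 6.83 and 7.96 on all arrays and highest in Nr4a-TKO (7.73 and 7.96). The deleted parts are not given, so these probes check neither genotype. The summed linear level of 12 T cell identity genes was 1553 to 1843 on the 8 arrays, although 8 of the 12 were called lower and 2 higher in WT Treg against WT Tconv (median -0.36), 6 lower and 1 higher in Nr4a-TKO and 3 lower and 2 higher in Foxp3-KO. Markers of other cells were not equal: summed myeloid markers were 102 and 107.03 in WT Tconv, 203 and 113 in WT Treg, 500 and 361 in Nr4a-TKO and 341 and 237 in Foxp3-KO. Summed B cell markers were 2.94 and 3.1, 12.7 and 9.97, 66.5 and 20.1, and 22.5 and 6.9 in the same order. Innate-like T and NK cell markers were 26.7 and 26, 6.71 and 4.38, 29.6 and 24.5, and 86.3 and 12.5. Immature double-positive thymocyte genes were 101 and 100.1, 33.5 and 28.4, 22.3 and 27.2, and 47.7 and 70. Red cell markers stayed between 0.243 and 0.67 and stromal markers between 2.18 and 3.47, with the red cell genes Alas2 and Hbb-b1 and the stromal genes Foxn1, Pdgfra and Col3a1 above background on 0 of 8 arrays. Other members of these lists moved: Hbb-bt, a haemoglobin gene, was at -1.15 and -3.17 in Nr4a-TKO against -6.24 and -6.37 in WT Tconv (a difference of 4.14, adjusted p = 0.00673). Of 8 tested stromal and epithelial genes, 3 were called higher and 1 lower in WT Treg against WT Tconv. The shares of all genes were 13.8% and 21.5%. In Nr4a-TKO against WT Tconv 3 were called higher and 2 lower, beside 21.5% and 26.8% of all genes. In the same order, Col1a2 differed by 1.5 and 2.38, Krt18 by 1.32 and 2.05 and Epcam by 1.52 and 2.12. Cdh5 was at -5.88 and -5.04 in WT Treg, -5.40 and -6.33 in Nr4a-TKO and -3.59 and -3.48 in WT Tconv. Pax5, which defines B cells, was above background on 1 array. The part of these other cells in the results below was not tested. In bulk samples, fewer cells of a type and less RNA per cell cannot be told apart.

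WT Treg against WT Tconv asks how thymic regulatory T cells differ from conventional ones. Respiratory chain transcripts were lower in WT Treg: 34 of 81 members fell and 3 rose (limma, adjusted p under 0.05), where 21.5% of all 13496 genes fell and 13.8% rose. The members that fell were 42% of the list. The median difference of the members was -0.25, against -0.09 over all genes, and single differences ran from -1.15 to 0.45. The replicates of both groups were separated, with WT Treg lower, for 65 members (80.2%, against 47.1% of all genes) and higher for 5 (6.17%, against 30.8%). The members' median level relative to WT Tconv was -0.23 and -0.27 on the 2 WT Treg arrays, and -0.09 and -0.08 over all genes. The root mean square of the members' SD between replicates was 0.06 in WT Tconv and in WT Treg, against 0.18 and 0.31 over all genes. Members were also brighter, with a median level over the arrays of 5.29 against 0.93 over all genes. The shares of all genes were not matched for level or spread, and the part of these in the result was not tested. In the same comparison 17 of 19 tested proliferation genes fell, with a summed linear level of 318 and 312 in WT Tconv and 169 and 170.1 in WT Treg, and its part in the result was not tested. The number of calls rested on each array of the pair: 37 were called in all, 2 without WT Tconv replicate 1, 3 without WT Tconv replicate 2, 10 without WT Treg replicate 1 and 9 without WT Treg replicate 2, while the members' median stayed between -0.27 and -0.23. Quantile normalization gave 20 lower and 3 higher, and median scaling 55 and 2.

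In complex I, the NADH dehydrogenase, 16 of 37 members fell in WT Treg and 1 rose, with a median difference of -0.24. All 16 were accessory subunits, which surround the catalytic core (16 of 30, median -0.27). None of the 7 core subunits that carry the flavin and iron-sulfur centres passed the test (0 of 7, median -0.12, 1 at an unadjusted p under 0.05). That the accessory and core subunits differ was not tested. Ndufab1, the mitochondrial acyl carrier protein, which also serves fatty acid and lipoic acid synthesis, fell most. Its level was 1.09 and 1.18 in WT Tconv, -0.22 and 0.18 in WT Treg, 0.65 and 0.68 in Nr4a-TKO and 0.49 and 0.50 in Foxp3-KO. WT Treg was the lowest group and WT Tconv the highest, with no overlap. The difference was -1.15 ± 0.14 (SE, limma, adjusted p = 0.00339), or 2.23-fold, and was called in all 8 fits that left out 1 array. Ndufc1, a small membrane-arm subunit whose promoter with the YY1 match is printed above, was at 5.03 and 5.02 in WT Tconv, 4.47 and 4.43 in WT Treg, 4.88 and 4.93 in Nr4a-TKO and 4.87 and 4.65 in Foxp3-KO. It fell by 0.57 on the log2 scale in WT Treg (adjusted p = 0.00816). Ndufa10 (-0.48), Ndufs5 (-0.45), Ndufa12 (-0.43) and Ndufa9 (-0.39) followed, as did Ndufa4 (-0.42), which is now assigned to complex IV. Ndufa6, an accessory subunit that binds the acyl carrier protein, went the other way, at 4.65 and 4.67 in WT Tconv, 5.02 and 5.06 in WT Treg, 4.67 and 4.74 in Nr4a-TKO and 4.97 and 4.86 in Foxp3-KO. Its rise in WT Treg was 0.38 ± 0.07 (adjusted p = 0.0135). Ndufa3 was just inside the threshold with -0.22 (adjusted p = 0.05 after rounding). Ndufb11, which fell by 0.35, has a second probe of the opposite sign.

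Complex II, succinate dehydrogenase, had 1 of 4 members changed. Sdhb, the iron-sulfur subunit, was at 6.37 and 6.41 in WT Tconv, 5.92 and 5.87 in WT Treg, 6.24 and 6.05 in Nr4a-TKO and 6.0 and 6.01 in Foxp3-KO. WT Tconv lay above every other array, and the WT Treg difference was -0.50 ± 0.09 (adjusted p = 0.00981). The flavoprotein gene Sdha, at 4.68 and 4.56 in WT Tconv and 4.72 and 4.67 in WT Treg, did not pass the test.

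In complex III, cytochrome bc1, 3 of 8 members fell and 1 rose. Uqcrq, a small subunit, was at 6.54 and 6.57 in WT Tconv, 6.11 and 5.99 in WT Treg, 6.38 and 6.35 in Nr4a-TKO and 6.38 and 6.25 in Foxp3-KO, and its WT Treg difference was -0.51 (adjusted p = 0.00805). Uqcrb (-0.33) and Uqcrfs1, the Rieske iron-sulfur protein (-0.30), also fell. Uqcrh, which encodes the hinge protein near the cytochrome c docking site, rose by 0.33 on the log2 scale (adjusted p = 0.0297), from 7.08 and 7.20 in WT Tconv to 7.42 and 7.51 in WT Treg. It was at 7.49 and 7.38 in Foxp3-KO and at 7.25 and 7.22 in Nr4a-TKO, where neither difference from WT Tconv passed the test.

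In complex IV, cytochrome c oxidase, 5 of 15 members fell and 1 rose. Cox6a1, the common isoform of subunit VIa, whose promoter with 2 NRF1 matches is printed above, was at 8.24 and 8.35 in WT Tconv, 7.74 and 7.77 in WT Treg, 8.14 and 8.14 in Nr4a-TKO and 8.16 and 8.0 in Foxp3-KO. It fell by 0.54 on the log2 scale in WT Treg (adjusted p = 0.00719). Cox5a (-0.37) and Cox6c (-0.36) fell as well, as did the muscle isoforms Cox6a2 and Cox7a1 described below. The regulatory subunit gene Cox4i1, at 6.85 and 6.93 in WT Tconv and 6.89 and 6.87 in WT Treg, overlapped between the groups.

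ATP synthase had 9 of 17 members lower in WT Treg and 0 higher (0 at an unadjusted p under 0.05), with a median of -0.27. The peripheral stalk holds the catalytic head against the membrane, and all 4 of its genes fell: Atp5pb by 0.51 on the log2 scale (adjusted p = 0.00582), Atp5o by 0.39, Atp5h by 0.36 and Atp5j by 0.25. Atp5pb was at 4.66 and 4.65 in WT Tconv, 4.18 and 4.12 in WT Treg, 4.38 and 4.41 in Nr4a-TKO and 4.45 and 4.33 in Foxp3-KO, so WT Tconv was above and WT Treg below all other arrays. Of the 5 members of the F1 head, Atp5b, the catalytic beta subunit, fell by 0.34. The small membrane subunits Atp5md (-0.40) and Atp5k (-0.36) fell, and so did Atp5g3 (-0.45) and Atp5g1 (-0.39), which encode the proton-carrying c subunit.

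**Figure D1:**
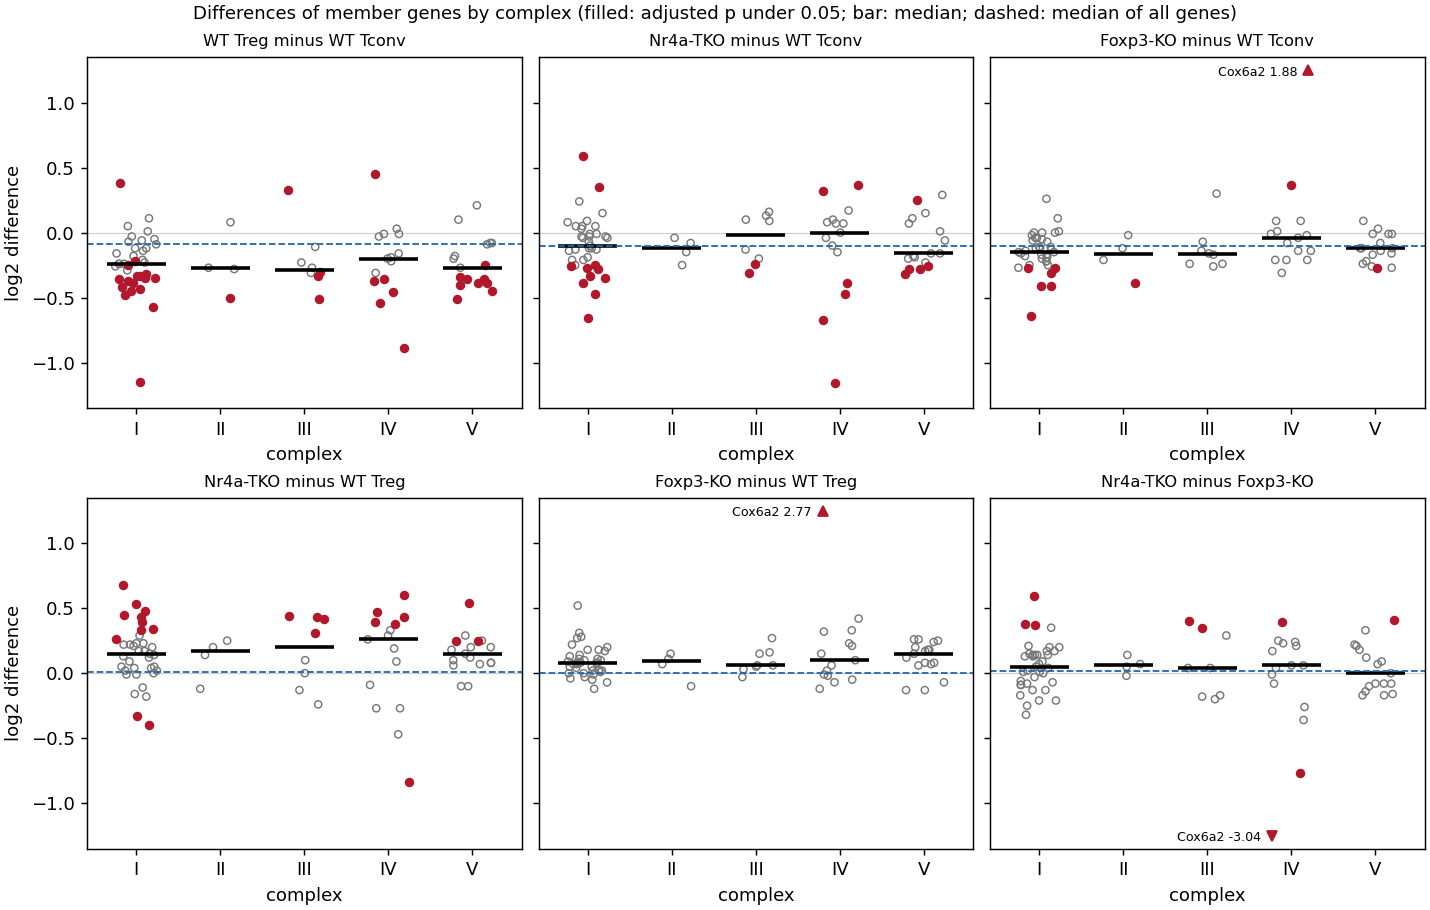
Log2 difference of every member in the 6 comparisons, by complex; filled points passed the test (limma, adjusted p under 0.05), bars are the median of a complex and the dashed line is the median of all 13496 genes. Arrows mark Cox6a2 beyond the axis, at 1.88 in Foxp3-KO against WT Tconv, 2.77 in Foxp3-KO against WT Treg and -3.04 in Nr4a-TKO against Foxp3-KO.

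Nr4a-TKO precursors had fewer calls against WT Tconv than WT Treg had, and whether these numbers differ was not tested. Of 81 members 19 fell (23.5%, against 26.8% of all genes) and 5 rose (6.17%, against 21.5%), and the median was -0.10 both for the members and over all genes. By complex, 9 of 37 fell and 2 rose in complex I, 2 of 8 fell in complex III, 4 of 15 fell and 2 rose in complex IV, and 4 of 17 fell and 1 rose in complex V, with none of 4 called in complex II. The largest difference of a widely expressed member was that of Ndufa10, an accessory subunit of complex I. It was at 3.11 and 3.08 in WT Tconv, 2.42 and 2.45 in Nr4a-TKO, 2.62 and 2.60 in WT Treg and 2.58 and 2.78 in Foxp3-KO, and WT Tconv was above the 3 other groups. The Nr4a-TKO difference was -0.66 ± 0.09 (SE, adjusted p = 0.00329) and was called in all 8 fits that left out 1 array. Summed B cell and myeloid markers were higher in Nr4a-TKO, with 9 of 10 B cell and 17 of 19 myeloid genes called higher, and their part in these differences was not tested.

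Catalytic members were among those that fell in Nr4a-TKO. In complex I, Ndufs1, with iron-sulfur centres, fell by 0.28 on the log2 scale (adjusted p = 0.0236) and Ndufv1, which binds NADH, by 0.26 (adjusted p = 0.038). Uqcrfs1 (-0.31) and Uqcrc2 (-0.24) of complex III, Atp5b (-0.28) and the stalk genes Atp5o (-0.32), Atp5h (-0.28) and Atp5pb (-0.26) fell too.

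The 5 members that rose in Nr4a-TKO are subunits of the proton-pumping arm of complex I (Ndufb8 and Ndufb7), of complex IV (Cox8a and Cox5b) and of the F1 head (Atp5d). Ndufb8 was at 5.80 and 5.67 in Nr4a-TKO, against 5.12 and 5.18 in WT Tconv, 5.30 and 5.10 in WT Treg and 5.28 and 5.01 in Foxp3-KO. It rose by 0.59 ± 0.12 against WT Tconv (adjusted p = 0.0135), and both Nr4a-TKO arrays were above the other 6. Cox8a, the common isoform of subunit VIII, whose promoter with 2 ETS matches is printed above, was at 7.69 and 7.67 in Nr4a-TKO, 7.27 and 7.34 in WT Tconv, 7.10 and 7.06 in WT Treg and 7.41 and 7.17 in Foxp3-KO. Its rise against WT Tconv was 0.37 ± 0.10 (adjusted p = 0.0247). Ndufb7 (0.35, adjusted p = 0.0445), Cox5b (0.32, adjusted p = 0.0467) and Atp5d (0.25, adjusted p = 0.041) were smaller rises. The 24 calls became 4 without WT Tconv replicate 1, 3 without WT Tconv replicate 2, 6 without Nr4a-TKO replicate 1, 10 without Nr4a-TKO replicate 2 and 13 without either WT Treg array, while the members' median stayed between -0.11 and -0.06.

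Foxp3-KO precursors against WT Tconv had 8 of 81 members lower (9.88%, against 14.3% of all genes) and 2 higher (2.47%, against 10.4%). The members' median was -0.14, with -0.10 over all genes. Quantile normalization gave 4 higher and 2 lower, with a median of -0.04 against -0.06. Of the 8, 6 were accessory subunits of complex I: Ndufab1 (-0.64 ± 0.14, adjusted p = 0.0278), Ndufa10 (-0.41), Ndufa12 (-0.41), Ndufb11 (-0.31), Ndufa5 (-0.27) and Ndufs5 (-0.27). The others were Sdhb (-0.39 ± 0.09, adjusted p = 0.0293) and Atp5g3 (-0.27). Ndufa5, Atp5g3 and Ndufs5 were near the threshold (limma, adjusted p = 0.042, 0.0481 and 0.0486), and a second Ndufb11 probe differed by -0.01. Ndufab1 and Ndufa10 fell against WT Tconv in each of the 3 other groups, and these 3 comparisons share their WT Tconv arrays. The members that rose were Cox6a2 and Cox7a2l.

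The 2 Foxp3-KO arrays differed from each other across the members. Replicate 1 was higher than replicate 2 for 67 of 81 members (82.7%), with a median of 0.14, while over all genes it was higher for 46.8%, with a median of -0.02. The members' median level relative to WT Tconv was -0.07 on replicate 1 and -0.20 on replicate 2. Replicate 1 also had the higher summed B cell, myeloid and innate-like T and NK cell markers given above. The 10 calls became 1 without either WT Tconv array, 6 without Foxp3-KO replicate 2, 5 without either Nr4a-TKO array and 3 without either WT Treg array, and the members' median ran from -0.20 to -0.07.

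Nr4a-TKO against WT Treg compares these precursors with wild-type Foxp3-positive thymocytes. Respiratory chain members were higher in Nr4a-TKO: 21 of 81 rose (25.9%, against 19.5% of all genes) and 3 fell (3.7%, against 15.9%), and the median was 0.17 against 0.01 over all genes. Arrays were separated with Nr4a-TKO higher for 56 members (69.1%, against 38.5% of all genes) and lower for 14 (17.3%, against 36.4%). In complex III 4 of 8 rose, all of them small subunits without a redox centre: Uqcr10 (0.44), Uqcr11 (0.43), Uqcrb (0.42) and Uqcrq (0.31). In complex IV 5 of 15 rose, led by Cox8a (0.60 ± 0.10, adjusted p = 0.00863), Cox7a1 (0.47) and Cox5a (0.43). In complex I 9 of 37 rose, all accessory, led by Ndufab1 (0.68 ± 0.14, adjusted p = 0.0167), Ndufb8 (0.53), Ndufa1 (0.48) and Ndufc1 (0.45). In complex V 3 of 17 rose, of which Atp5g1 had the largest difference, 0.54 ± 0.09 (adjusted p = 0.0111). Cox7a2l (-0.84) and Ndufa6 (-0.33) were among those that fell. Ndufv3 and Ndufb11, called higher by 0.34 and 0.26, each have a second probe of the opposite sign. In the same comparison 18 of 19 proliferation genes, 6 B cell markers and 7 of 19 myeloid markers were higher, and their part in the result was not tested. The 24 calls became 10 without either WT Tconv array, 3 without Nr4a-TKO replicate 1, 10 without Nr4a-TKO replicate 2, 5 without WT Treg replicate 1 and 3 without WT Treg replicate 2, with the median between 0.14 and 0.18. Quantile normalization gave a median of 0.09, with 15 higher and 4 lower.

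Foxp3-KO against WT Treg had 1 of 81 members higher, Cox6a2, and 0 lower, where 3.48% of all genes were higher and 2.93% lower. At an unadjusted p under 0.05 in limma, 15 of 81 members were higher and 0 lower, where 1753 of all 13496 genes were higher and 1673 lower. The median of 0.08, against 0.00 over all genes, lay within the 0.04 to 0.15 that leaving out single arrays gave, and without Foxp3-KO replicate 2 the count was 3. Nr4a-TKO against Foxp3-KO had 7 members higher and 2 lower, where 18% of all genes were higher and 15.8% lower, with a median of 0.05 against 0.02. Quantile normalization turned this balance to 4 higher and 10 lower, with a median of -0.02. The 7 were Ndufb8 (0.59 ± 0.12, adjusted p = 0.0192), Atp5g1 (0.41), Uqcr11 (0.40), Cox8a (0.39), Ndufa1 (0.38), Ndufa12 (0.37) and Uqcrb (0.35), all with adjusted p above 0.019. The 9 calls became 18 without Foxp3-KO replicate 1, 2 without Foxp3-KO replicate 2, 2 and 4 without Nr4a-TKO replicates 1 and 2, 3 without either WT Tconv array and 4 without either WT Treg array.

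Ranked by mean level, WT Tconv was the highest of the 4 groups for 49 of 81 members (60.5%, against 40.6% of all genes) and WT Treg the lowest for 52 (64.2%, against 23.8%). Nr4a-TKO was the highest for 25 (30.9%, against 29.7%) and the lowest for 16 (19.8%, against 34%). Foxp3-KO was the highest for 2 (2.47%, against 12.2%) and the lowest for 7 (8.64%, against 19.3%). These ranks take no account of the spread and are a description.

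Of the isoforms known from other tissues, Cox6a2, Cox7a1, Cox4i2 and Cox6b2 were above background on all 8 arrays. Cox6a2, the heart and muscle isoform of subunit VIa, had the largest differences of all members. Its level was -0.56 and -0.43 in WT Tconv, -1.46 and -1.31 in WT Treg, -1.88 and -1.44 in Nr4a-TKO and 1.40 and 1.37 in Foxp3-KO. Both Foxp3-KO arrays were above the other 6, and WT Treg and Nr4a-TKO overlapped. Foxp3-KO was higher than WT Tconv by 1.88 ± 0.16 (3.67-fold, adjusted p = 0.0023), than WT Treg by 2.77 (6.82-fold, adjusted p = 0.0029) and than Nr4a-TKO by 3.04 (8.23-fold, adjusted p = 0.000667). Against WT Tconv, Nr4a-TKO differed by -1.16 (adjusted p = 0.00347) and WT Treg by -0.89 (adjusted p = 0.0104). The WT Treg difference was called in 5 of 8 fits that left out 1 array, and each of the other 4 in all 8. Cox6a1 did not share this order, with Foxp3-KO at 8.16 and 8.0 between WT Treg and WT Tconv. Innate-like T and NK cell sums were 86.3 and 12.5 in Foxp3-KO, 6.71 and 4.38 in WT Treg and 26.7 and 26 in WT Tconv. Myeloid sums were 341 and 237 in Foxp3-KO, 203 and 113 in WT Treg and 500 and 361 in Nr4a-TKO. A list of 9 plasmacytoid dendritic cell genes was chosen after the values were seen. In Foxp3-KO against WT Tconv 5 were higher and 0 lower (median 1.15, 1 lower at an unadjusted limma p under 0.05). Against WT Treg 3 were higher and 0 lower (median 0.70, 0 lower at an unadjusted p under 0.05). Of all genes, 10.4% and 3.48% were higher in these comparisons. Nr4a-TKO against WT Tconv also had 5 higher, with 2 lower (median 0.69), where 21.5% of all genes were higher. Nr4a-TKO against Foxp3-KO had 1 higher and 1 lower (median -0.09). In this list Tcf4 was at 1.17 and 1.1 in Foxp3-KO, -0.07 and 0.03 in WT Tconv, 0.23 and -0.13 in WT Treg and 0.93 and 0.41 in Nr4a-TKO. Other members of the list had other orders. Runx2, above background on 4 of 8 arrays, was at -1.03 and -1.41 in Nr4a-TKO and -3.42 and -4.85 in Foxp3-KO. Ly6d was at 3.39 and 3.86 in Nr4a-TKO and 3.34 and 2.69 in Foxp3-KO. Spib overlapped between these groups, and Siglech and Pacsin1 were highest in WT Tconv. The summed level of the list was 435 and 454 in WT Tconv, 408 and 433 in WT Treg, 408 and 400.4 in Nr4a-TKO and 431 and 407 in Foxp3-KO, most of it from Siglech, at 8.35 to 8.61 on every array. The part of these cell types in the Cox6a2 result was not tested.

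**Figure D2:**
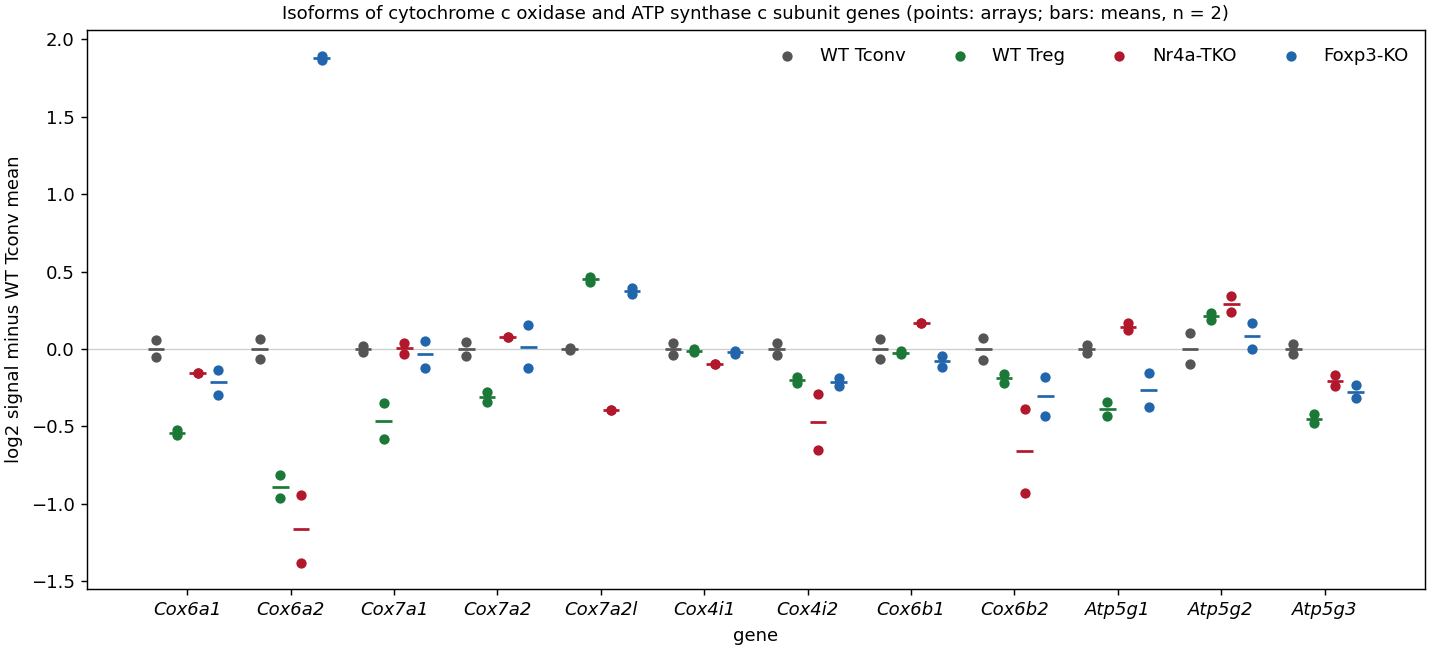
Log2 level minus the WT Tconv mean of the same gene, for paralogous subunit genes in the 4 groups. Points are arrays and bars are means of n = 2. Cox6a2 is high in Foxp3-KO alone, and Cox7a2l is high in WT Treg and Foxp3-KO and low in Nr4a-TKO.

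Cox7a1, the heart and muscle isoform of subunit VIIa, fell by 0.46 on the log2 scale in WT Treg (adjusted p = 0.025) and was higher in Nr4a-TKO than in WT Treg by 0.47 (adjusted p = 0.0247). Cox4i2, an isoform of subunit IV best known from lung, fell by 0.47 in Nr4a-TKO against WT Tconv (adjusted p = 0.0282), where Cox4i1 did not pass the test. Cox6b2, a testis isoform, fell by 0.67 in the same comparison (adjusted p = 0.0346). Each was called in 3 of 8 fits that left out 1 array, and without Nr4a-TKO replicate 1 the difference was -0.29 for Cox4i2 and -0.40 for Cox6b2. Among the c subunit genes, Atp5g1 was at 6.03 and 6.08 in WT Tconv, 5.71 and 5.62 in WT Treg, 6.18 and 6.22 in Nr4a-TKO and 5.90 and 5.68 in Foxp3-KO. Atp5g3 fell in WT Treg and in Foxp3-KO, and Atp5g2, at 7.14 and 7.34 in WT Tconv and 7.43 and 7.47 in WT Treg, was called in none of those. The 3 genes encode the same mature protein with different targeting sequences.

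Cox7a2l encodes a protein related to subunit VIIa that joins complexes III and IV into a supercomplex, and, like Cox6a2, it had called differences from WT Tconv in all 3 other groups that did not share one direction. Its level was 7.42 and 7.41 in WT Tconv, 7.85 and 7.88 in WT Treg, 7.02 and 7.02 in Nr4a-TKO and 7.77 and 7.81 in Foxp3-KO. Nr4a-TKO was below, and WT Treg and Foxp3-KO above, both WT Tconv arrays. The difference from WT Tconv was 0.45 ± 0.06 in WT Treg (adjusted p = 0.0053), -0.39 in Nr4a-TKO (adjusted p = 0.00566) and 0.37 in Foxp3-KO (adjusted p = 0.0146). Nr4a-TKO was below WT Treg by 0.84 (1.79-fold, adjusted p = 0.001) and below Foxp3-KO by 0.77 (adjusted p = 0.0017). Its 3 probes had the same direction, with 0.40 to 0.45 in WT Treg against WT Tconv and -1.0 to -0.83 in Nr4a-TKO against WT Treg. Cox7a2, the common isoform of subunit VIIa, rose by 0.39 in Nr4a-TKO against WT Treg (adjusted p = 0.0405), the opposite direction.

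Members with and without a match to the NRF1 or YY1 motif were counted apart. In WT Treg against WT Tconv, 9 of 17 members with an NRF1 match fell and 1 rose, with a median of -0.32, and 21 of 50 without one fell and 2 rose, with a median of -0.24. With a YY1 match 10 of 17 fell, and without it 20 of 50 fell and 3 rose, with medians of -0.25 and -0.26. The difference between these shares was not tested.

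Other genes of mitochondrial energy metabolism were counted the same way. The counts in WT Treg against WT Tconv stand beside the 21.5% of all genes that fell and the 13.8% that rose. In WT Treg against WT Tconv, 40 of 77 mitochondrial ribosome genes fell and 1 rose (median -0.28), led by Mrps28 (-0.90, adjusted p = 0.00252). Of 24 genes of protein import into mitochondria 15 fell, among them Tomm20 (-0.62), a receptor of the outer membrane, and Timm23 (-0.56), the inner membrane channel. Of 20 genes of pyruvate dehydrogenase and the tricarboxylic acid cycle 10 fell and 1 rose, with Suclg1 at -0.58 and Mdh2 at -0.55. Of 19 genes of electron carriers and ubiquinone synthesis 10 fell and 1 rose, with Coq7 at -0.87 (adjusted p = 0.00211), Pdss1 at -0.67 and Coq6 at -0.53. Assembly factors fell in 6 of 16 cases for complex I (1 rose), with Ndufaf6 at -0.81 and Ndufaf4 at -0.65, in 3 of 9 for complexes II and III (1 rose), and in 15 of 27 for complexes IV and V, with Cmc2 at -1.06 (adjusted p = 0.0015). Among 17 transcriptional regulators of mitochondrial genes 3 fell, a share below that of all genes: Polrmt (-0.62), the mitochondrial RNA polymerase, Ppargc1b (-0.48) and Tfb1m (-0.36). Glycolysis genes were split, with 6 of 21 higher and 6 lower and a median of -0.06, and the lactate exporter gene Slc16a3 was higher by 2.49 (adjusted p = 0.000418).

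**Figure D3:**
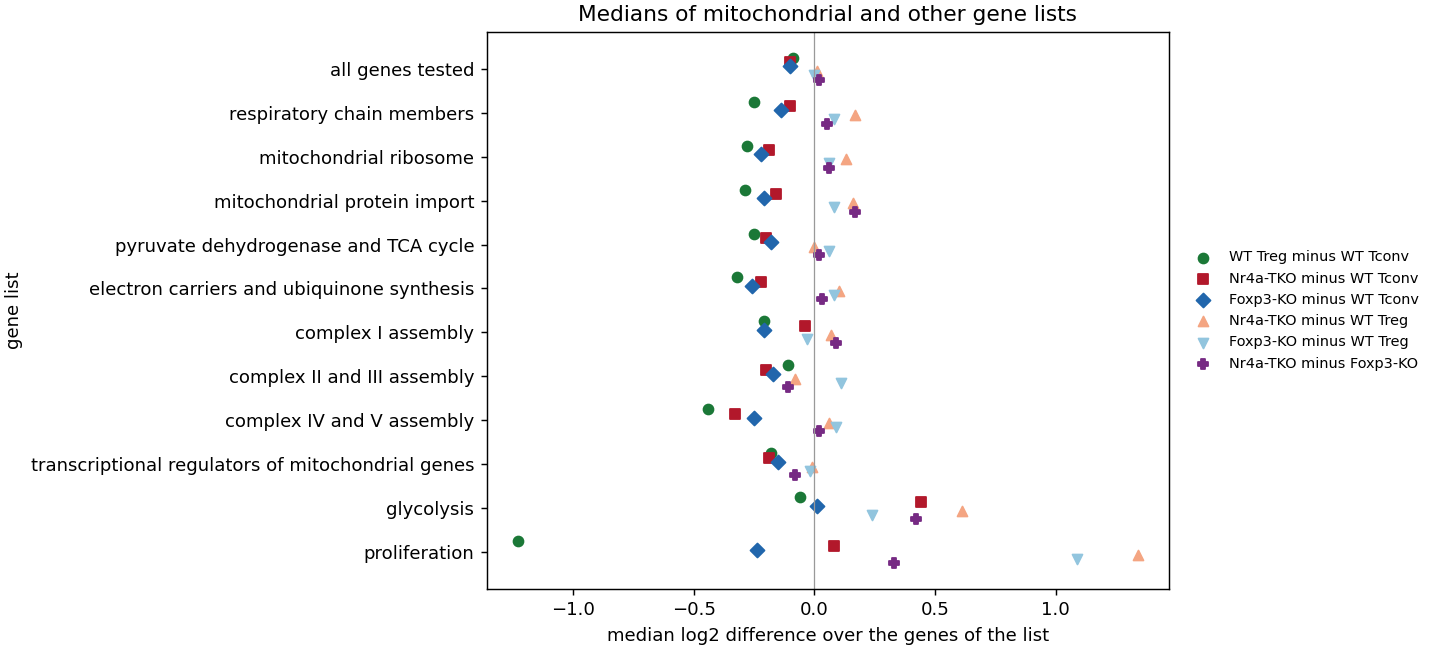
Median log2 difference of the members and of the related gene lists in the 6 comparisons. In WT Treg against WT Tconv the mitochondrial lists lie between -0.44 and -0.11, glycolysis at -0.06 and proliferation at -1.23.

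In Nr4a-TKO against WT Tconv, where 26.8% of all genes fell and 21.5% rose, 29 of 77 mitochondrial ribosome genes fell and 1 rose (median -0.19), and 12 of 27 assembly factors of complexes IV and V fell (median -0.33). Import had 8 of 24 lower, the tricarboxylic acid cycle 7 of 20 lower, and carriers and ubiquinone synthesis 7 of 19 lower and 4 higher. Complex I assembly had 5 of 16 lower and 2 higher, and complexes II and III 3 of 9 lower. Of 17 regulators 8 fell, among them Myc (-0.72, adjusted p = 0.0029), Perm1 (-1.94, adjusted p = 0.00645) and Polrmt (-0.66). Of the glycolysis genes 12 of 21 rose and 3 fell, with a median of 0.44. Slc16a3 was higher by 3.09 and the glycolytic enzyme gene Tpi1 by 2.12. Pdk1, whose product inhibits pyruvate dehydrogenase, had a difference of -2.00. Proliferation genes had 4 of 19 higher and 1 lower. In Foxp3-KO against WT Tconv, where 14.3% of all genes fell and 10.4% rose, 27 of 77 mitochondrial ribosome genes, 8 of 24 import genes, 4 of 20 tricarboxylic acid cycle genes, 7 of 19 carrier genes (1 rose), 4 of 16 complex I assembly genes, 10 of 27 assembly genes of complexes IV and V and 3 of 17 regulators fell, and 1 of 9 assembly genes of complexes II and III rose. Glycolysis had 4 of 21 higher and 1 lower, and proliferation 6 of 19 lower.

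In Nr4a-TKO against WT Treg, where 19.5% of all genes rose and 15.9% fell, 16 of 77 mitochondrial ribosome genes rose and 3 fell, 7 of 24 import genes rose and 1 fell, 5 of 19 carrier genes rose and 7 of 27 assembly genes of complexes IV and V rose. Complex I assembly had 4 of 16 higher and 1 lower, complexes II and III 1 of 9 higher and 2 lower, the tricarboxylic acid cycle 4 of 20 in each direction and regulators 1 of 17 higher and 2 lower. Glycolysis had the larger median, 0.61, with 13 of 21 genes higher and 3 lower, and proliferation a median of 1.34. In Foxp3-KO against WT Treg, where 3.48% of all genes were higher, 2 of 27 assembly genes of complexes IV and V, 4 of 21 glycolysis genes and 15 of 19 proliferation genes were higher. Of 77 mitochondrial ribosome genes 0 were called in limma, with 3 higher and 2 lower at an unadjusted p under 0.05. Over all 13496 genes, 1753 were higher and 1673 lower at that unadjusted threshold.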

How the data were processed

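Scanner files of 8 one-colour arrays were used, from Cy3-labelled RNA made from 10 ng of total RNA per the labels. Per the file headers, the deposited values are the processed intensity of each spot, from which Agilent Feature Extraction 10.7.1.1 (per the submitters' processing notes) had removed the background and spatial trends; the arrays were not scaled to each other. A matrix of intensity deposited by the authors was a constant multiple of the scanner values on each array (spread 0.131 to 0.136%, column 75th percentiles of 1.003 to 1.006, medians of 0.064 to 0.074), with the scaling step not stated.

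Control spots and 81 to 164 outlier spots per array were left out, log2 intensity minus the array's 75th percentile was taken, and the spots of a probe were averaged. Scaling of this kind shows a gene's level relative to the other genes, not its amount per cell. Of 55681 probes, 28026 had a symbol through their RefSeq accession (GRCm38.p6 table) and 27655 had none, and 1595 of 23839 accessions had no match. The array was annotated against another build, so only promoter windows carry coordinates. Each gene is its brightest probe, and 22 members had several. A gene was tested if well above background on both arrays of at least 1 group.

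One model with all 4 groups was run in limma 3.58.1 (R 4.3.3, lmFit and eBayes, 4 residual and 1.59 prior degrees of freedom), with Benjamini-Hochberg adjustment over all 13496 genes in each of 6 comparisons at 0.05, after tests on simulated data. The design is 2 arrays a group, whose number limits the precision. Figures were drawn with matplotlib 3.10.9.

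Members, lists, motifs and tests were chosen with earlier results of these data known. Named genes were, per comparison, up to 5 rises and 5 falls called with separated replicates, the largest difference of each complex, isoforms of other tissues, paralogue sets, members whose direction against WT Tconv differed, and up to 3 genes per related list. Further called members are named beside them to complete a complex. Alternatives were other scalings, background correction, the deposited matrix, no filter, a trend or fold threshold, fits of 2 groups, each array left out, a replicate block and, after seeing the data, array weights. Some genes are counted in totals but not reported here by name.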

Additional observations from a re-analysis of the deposited data

Results flagged for a closer look

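Cox6a2 differed between the groups under the same contrast with WT Tconv. The Nr4a-TKO effect of -1.16 and the Foxp3-KO effect of 1.88 differed by -3.04 (limma, adjusted p = 0.000667), and the WT Treg effect of -0.89 and the Foxp3-KO effect of 1.88 differed by 2.77 (adjusted p = 0.0029).

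Cox7a2l rose against WT Tconv in WT Treg (0.45) and in Foxp3-KO (0.37) and fell in Nr4a-TKO (-0.39). The Nr4a-TKO effect differed from that of Foxp3-KO by -0.77 (limma, adjusted p = 0.0017) and from that of WT Treg by -0.84 (adjusted p = 0.001). Each of these tests of a difference is also the direct comparison of the groups given above.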

How the results depend on the processing

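Among the genes picked by the naming rule above, no called one changed sign in any alternative run. The other called members were checked only in fits that left out 1 array, where none changed sign. Counts of called members moved in these cases. In WT Treg against WT Tconv (37) they became 57 with median scaling, 23 with quantile normalization, 21 without the filter and 1 with a 2-fold threshold. In Nr4a-TKO against WT Tconv (24) they became 7 without the filter and 1 with the 2-fold threshold, and in Nr4a-TKO against WT Treg (24) 12 and 0. In Foxp3-KO against WT Tconv (10) they became 36 with median scaling, 22 with a trend, 17 with normexp, 6 with quantile normalization, 4 with array weights, 2 without the filter, 2 with 2 groups only and 1 with the 2-fold threshold. In Nr4a-TKO against Foxp3-KO (9) they became 24 with a trend, 14 with median scaling, 14 with quantile normalization, 4 with array weights, 2 with 2 groups only and 1 with the 2-fold threshold. In Foxp3-KO against WT Treg (1) they became 2 with a trend, 2 with quantile normalization and 0 with 2 groups only (4 at an unadjusted limma p under 0.05). Array weights were chosen after seeing the data, and the cause of these moves was not tested.

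Leaving out each array in turn gave 2 to 48 calls in WT Treg against WT Tconv, 3 to 27 in Nr4a-TKO against WT Tconv, 1 to 9 in Foxp3-KO against WT Tconv, 3 to 31 in Nr4a-TKO against WT Treg, 1 to 3 in Foxp3-KO against WT Treg and 2 to 18 in Nr4a-TKO against Foxp3-KO. A lone array was assumed to vary like the other groups.

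Median scaling moved the median of all genes to -0.23 for WT Treg, -0.25 for Foxp3-KO and -0.17 for Nr4a-TKO against WT Tconv, with members at -0.40, -0.29 and -0.17. Higher against lower calls were then 2 and 26 in Nr4a-TKO against WT Tconv. Quantile normalization moved the members' median to -0.17 for WT Treg, -0.04 for Foxp3-KO and -0.05 for Nr4a-TKO against WT Tconv (all genes -0.06, -0.06 and -0.08) and to 0.09 for Nr4a-TKO against WT Treg. It gave 4 and 2 in Foxp3-KO against WT Tconv, and 4 and 10 in Nr4a-TKO against Foxp3-KO.

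The labels number replicates 1 and 2 in each group, but same-numbered arrays deviated together weakly (r from -0.03 to 0.26), so the numbers are not shown to pair the samples. With the replicate block, calls were 30 and 21 for WT Treg and Nr4a-TKO against WT Tconv, 6 for Foxp3-KO against WT Tconv, 19 and 1 for Nr4a-TKO and Foxp3-KO against WT Treg and 9 for Nr4a-TKO against Foxp3-KO.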

Other observations

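Sdhaf1, an assembly factor of complex II named after its values were seen, had levels in the same order as Cox7a2l: 3.05 and 3.17 in WT Tconv, 4.23 and 4.57 in WT Treg, 2.35 and 2.36 in Nr4a-TKO and 3.93 and 3.94 in Foxp3-KO. Its difference from WT Tconv was 1.30 ± 0.12 in WT Treg (limma, adjusted p = 0.00176), -0.75 in Nr4a-TKO (adjusted p = 0.00643) and 0.83 in Foxp3-KO (adjusted p = 0.0111). Klk1, a kallikrein gene taken from the list of plasmacytoid dendritic cell genes and likewise named after its values were seen, was highest in Foxp3-KO, as Cox6a2 was, at 0.48 and 0.48, against -1.32 and -1.34 in WT Tconv, -1.86 and -2.24 in WT Treg and -1.83 and -1.91 in Nr4a-TKO. These are values of 2 genes picked from many, with no test of the likeness.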
